A study of Homo sapiens with 16 samples.

Results

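The cassette exons described here are internal exons over 30 nt and up to 1000 nt long that some full-length transcript models contain and others skip with a single intron. They were found in the transcript models of 4 full-length cDNA (IsoSeq) pools. An exon qualified when at least 1 model contained it and at least 1 model, in any pool, had an intron from the start of its upstream intron to the end of its downstream intron. In all, 21046 of the 140288 internal exons in the models qualified, out of 133516 internal exons in that length range. The rule used no comparison between treatments, but an exon could qualify through a single pool. Where a form was seen only in pools of 1 treatment, the share could differ in a single direction only. Of the exons given below, this holds for those of GCN1 (149 nt), MACF1 (111 nt), CELF1 (110 nt) and MIA2 (129 nt), among others.

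The cells were HEK-293T, a human embryonic kidney line with SV40 large T antigen, and HT-1080, a human fibrosarcoma line. Each line was transfected with 20 nM of siRNA, either one that targets HNRNPH1 (siHNRNPH1) or a control labelled siNegative, and harvested after 48 h. The 2 lines and 2 siRNAs gave 4 groups, each with 1 IsoSeq pool made from replicates and 3 short-read RNA-seq libraries. The study addressed splicing under HNRNPH1 depletion, with EIF4G1 and AURKA named in its title. The siRNA lowers HNRNPH1 and does not remove it, and the labels do not say which replicates entered a pool.

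HNRNPH1 belongs to the HNRNPH/F family of RNA-binding proteins, which bind runs of guanines in pre-mRNA. Bound inside an exon these proteins often repress it, and bound in the intron downstream they often favour its use. A cassette exon whose length is a multiple of 3 keeps the reading frame whether it is included or skipped. An exon of another length shifts the frame and can expose the transcript to nonsense-mediated decay, and a cassette exon near the 5′ end may change only the leader of the mRNA.

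The RNA against which the siRNA was directed was lower in every treated library. HNRNPH1 stood at 1111 ± 8.76 CPM (counts per M counts of the library; mean ± SD, n = 3) in HEK-293T siNegative and at 335 ± 87.8 CPM with siHNRNPH1, and at 619 ± 14.5 and 230 ± 1.61 CPM in HT-1080. In HEK-293T the siHNRNPH1 libraries held 234, 376 and 394 CPM, so replicate 1 stood apart, as it did in many transcript shares given below. Short-read libraries were deeper in HEK-293T, at 107.7 to 121.0 M (mega) expected counts, than in HT-1080, at 27.3 to 32.7 M. Of the line markers checked, NEFM (251.5 to 490.2 CPM against at most 0.0330) marked HEK-293T, and PLAU (1718 to 2856 CPM against at most 1.20) and CD44 (1836 to 3129 CPM against at most 2.76) marked HT-1080. CDH2, listed for HEK-293T, had overlapping ranges in the lines (62.7 to 126.5 and 82.6 to 112.6 CPM), and MMP1, listed for HT-1080, reached only 1.26 to 1.99 CPM there.

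Of the exons more included after siHNRNPH1, the one whose lesser difference between siRNAs in either line was greatest lies in ATP2C1, which encodes the calcium and manganese pump of the Golgi. Its 186 nt exon (GRCh38, chr3:130894590-130894775, plus strand) is the second exon of its models, with an upstream intron of only 252 nt and a downstream intron of 35640 nt. The start of this exon is the only splice site of a named exon for which a RefSeq sequence was at hand. It is shown to mark where the included and skipped forms part, at chr3:130894570-130894599 (RefSeq, GRCh38.p14), with 20 intron bases in lower case and the first 10 exon bases in capitals.
ATP2C1 exon start: tctcctggtttctcttgcagATGCTGCTGC
The intron ends in the usual AG, directly before the first exon base of the models. Exon-level annotation (coding part or UTR) was not used here for any exon.

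**Figure D1:**
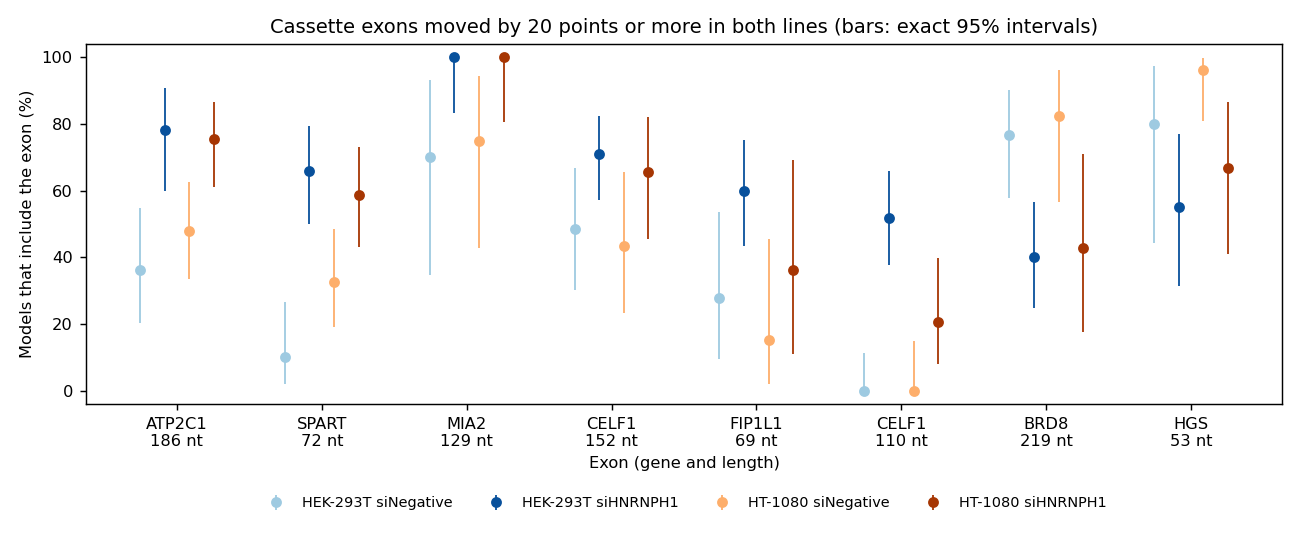
Share of models that include each of 8 cassette exons moved by at least 20 percentage points the same way in both lines (vertical axis, percent; horizontal axis, gene and exon length). Points are pools and bars are exact 95% intervals over models; the 6 exons on the left, from ATP2C1 to CELF1 110 nt, are higher with siHNRNPH1 (dark colours) and those on the right, BRD8 and HGS, are lower, and no exon has bars that are apart in both lines.

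The measure used throughout is the included share: of the models of a pool that either include the exon between its flanking splice sites or skip it, the percentage that include it. The files list each model once and hold no read counts, so an abundant and a rare isoform weigh the same. A share of models is therefore not the share of RNA molecules. With 1 pool per group there is no test between siRNAs. An exon was counted in a line when both of its pools had at least 10 models with either form, and was called moved when its share differed by at least 20 percentage points. Exact Clopper-Pearson 95% intervals cover the counting error of models only.

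Most cassette exons were thinly covered. The pools held 64705 models (HEK-293T siNegative), 94847 (HEK-293T siHNRNPH1), 72186 (HT-1080 siNegative) and 68078 (HT-1080 siHNRNPH1). Skipping rested on a single model over all 4 pools in 5460 exons (25.9%), and inclusion on a single model in 5457 (25.9%). Either form was seen in all 4 pools for 15627 exons. In HEK-293T 5436 exons of 1516 genes could be counted, in HT-1080 3812 exons of 1172 genes, and in all 4 pools 2505 exons of 710 genes.

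The cassette exons were a little shorter than other internal exons of the same length range, with a median of 117 nt (quartiles 83 and 160) against 126 nt (91 and 171) for 112470 others. Lengths divisible by 3 made up 44.3% of them and 37.3% of the others. These are descriptions, and exons of one gene share its models. A single pair of flanking splice sites served 18817 exons (89.4%). The exons lay in 6851 RefSeq genes, with a median of 2 per gene. PLS3, which encodes the actin-bundling protein plastin 3, had the most with 28, followed by NCAPG2 (a condensin II subunit) and TCOF1 (the nucleolar protein treacle) with 22 each. At the length limits, the 112 exons of 31 to 33 nt had a median included share of 27.1%, beside 34.0% for 86 exons of 28 to 30 nt just outside. At the upper limit, the 58 exons of 901 to 1000 nt and the 51 of 1001 to 1100 nt both stood at a median of 50%.

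Included shares gathered at both ends of the scale. Averaged over the siNegative pools, 769 of the 2505 exons were included in under 10% of models, 603 in 10 to 90%, and 1133 in over 90%. Lengths divisible by 3 were 40.1% of the exons mostly skipped, against 56.7% of the intermediate and 56.9% of the mostly included exons. The mean share was 58.1% in both HEK-293T pools, and 58.3% and 58.9% in HT-1080 siNegative and siHNRNPH1. No general shift towards inclusion or skipping appeared in these means. Exons at exactly 0% or 100% were fewer in the HEK-293T siHNRNPH1 pool (268 and 347) than in the HEK-293T siNegative pool (424 and 583), and the siHNRNPH1 pool also held more models. In HT-1080, where the model totals were closer, these counts were 522 and 783 with siHNRNPH1 and 511 and 678 with siNegative. The part of model number in these counts was not tested.

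**Figure D2:**
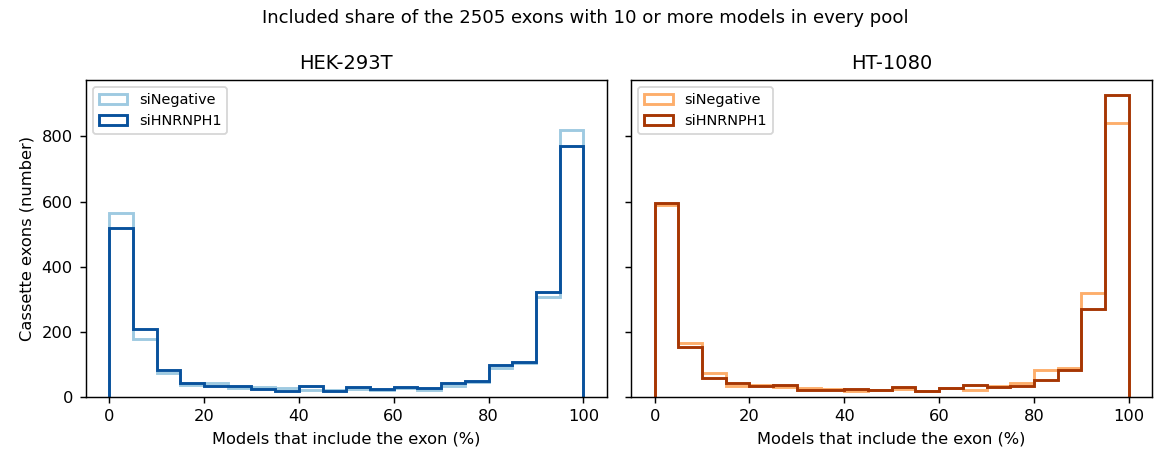
Number of cassette exons (vertical axis) by the percent of models that include them (horizontal axis, bins of equal width), for the 2505 exons with at least 10 models in every pool, HEK-293T left and HT-1080 right. In both lines most exons sit in the lowest and highest bins, and the siNegative and siHNRNPH1 outlines lie close together, with mean shares of 58.1% in both HEK-293T pools and of 58.3% and 58.9% in HT-1080.

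Few exons moved. In HEK-293T 204 of 5436 did (3.75%), of which 88 were higher with siHNRNPH1 (1.62%) and 116 were lower (2.13%). In HT-1080 101 of 3812 moved (2.65%), 46 higher (1.21%) and 55 lower (1.44%). These counts include exons with a form seen only in pools of 1 siRNA, which could differ in a single direction only. The median difference was 0 in both lines, and the median absolute difference was 4.76 points for HEK-293T and 3.70 points for HT-1080. For scale, the siNegative pools of the 2 lines themselves differed by 20 points or more at 36 exons higher and 26 lower in HT-1080 (2.48% of 2505). These are the exons counted in all 4 pools, a smaller set than those above. Over the same 2505 exons, siHNRNPH1 gave 37 higher and 34 lower in HEK-293T, and 27 higher and 15 lower in HT-1080. The moved exons also rested on slightly fewer models: the median in the siNegative pool was 13 for those higher and for those lower in HEK-293T against 16 for the rest.

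Intervals that did not overlap were rarer still, at 7 exons in HEK-293T (0.129%) and 1 in HT-1080 (0.0262%), and none in both. The HEK-293T exons higher were those of ATP2C1 (186 nt), SPART (72 nt), CELF1 (110 nt) and AP3M2 (59 nt). AP3M2 encodes a subunit of an adaptor complex of vesicle transport, and its exon stood at 8.33% of 12 models with siNegative and 75% of 16 with siHNRNPH1. The HEK-293T exons lower were those of BRD8 (219 nt), SCML2 (152 nt) and CDK16 (120 nt). SCML2, a Polycomb-group gene, went from 76.9% of 26 models to 35.7% of 28, and CDK16, a cyclin-dependent kinase gene, from 26.1% of 23 to 0 of 35. In HT-1080 the exon was that of MPRIP (63 nt), a gene for an actin- and myosin-phosphatase-binding protein, with 51.7% of 29 models in siNegative and 94.1% of 17 in siHNRNPH1. AP3M2, SCML2, CDK16 and MPRIP were singled out after their values were seen. The first 2 had 2 to 5 models per HT-1080 pool, MPRIP had 1 model in each HEK-293T pool, and CDK16 was included in 0 of 12 and 1 of 14 HT-1080 models.

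Exons that moved had about the same length as the rest. The median was 109.5 nt for those higher and 109.5 nt for those lower in HEK-293T, and 114 nt for those that did not move. In HT-1080 it was 115.5, 103 and 114 nt. A length divisible by 3 was found in 51.1% of the HEK-293T exons higher, 44.0% of those lower and 48.9% of the rest, and in HT-1080 in 52.2%, 58.2% and 51.5%. The direction of the small difference in exons lower was thus opposite in the lines. Exons that were the second of their models made up 25% of the 88 HEK-293T exons higher and 21.6% of the 116 lower, against 18.8% of the rest. The HT-1080 values were 30.4%, 25.5% and 18.9%. Exons higher had median upstream introns of 1978 nt in HEK-293T and 826 nt in HT-1080, against 2222 and 2096 nt for the rest, and median downstream introns of 2795 and 3244 nt against 2128 and 1987 nt. For exons lower, the upstream medians were 1570 and 2183 nt and the downstream medians 1334 and 1961 nt, so in HEK-293T the exons lower had the shorter upstream introns.

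Of the 2505 exons counted in all 4 pools, 9 moved the same way in both lines (0.359%), 6 higher (0.240%) and 3 lower (0.120%), and 1 moved in opposite directions (0.0399%). Over the same exons, 37 were higher and 34 lower in HEK-293T (1.48% and 1.36%), and 27 higher and 15 lower in HT-1080 (1.08% and 0.599%). The lines share no pool. Of the 37 higher in HEK-293T, 24 were higher at any size in HT-1080 and 7 lower, while over all 2505 exons 839 were higher and 710 lower there. Of the 34 lower in HEK-293T, 21 were lower in HT-1080 and 11 higher. Seen from HT-1080, 22 of its 27 higher exons were higher in HEK-293T, and 10 of its 15 lower exons were lower, where all exons split into 1085 higher and 1092 lower. Across the 2505 exons, Pearson's r between the differences of the lines was 0.254 and Spearman's rho 0.171. Exons of one gene share models and are not independent. All these counts and correlations include exons with a form seen only in pools of 1 siRNA. Examples are the MIA2 exon and the CELF1 exon found in no siNegative model. Such exons could not differ in opposite directions in the lines, so their agreement was fixed in advance. How many exons are of this kind was not counted, so the agreement beyond them is not known.

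**Figure D3:**
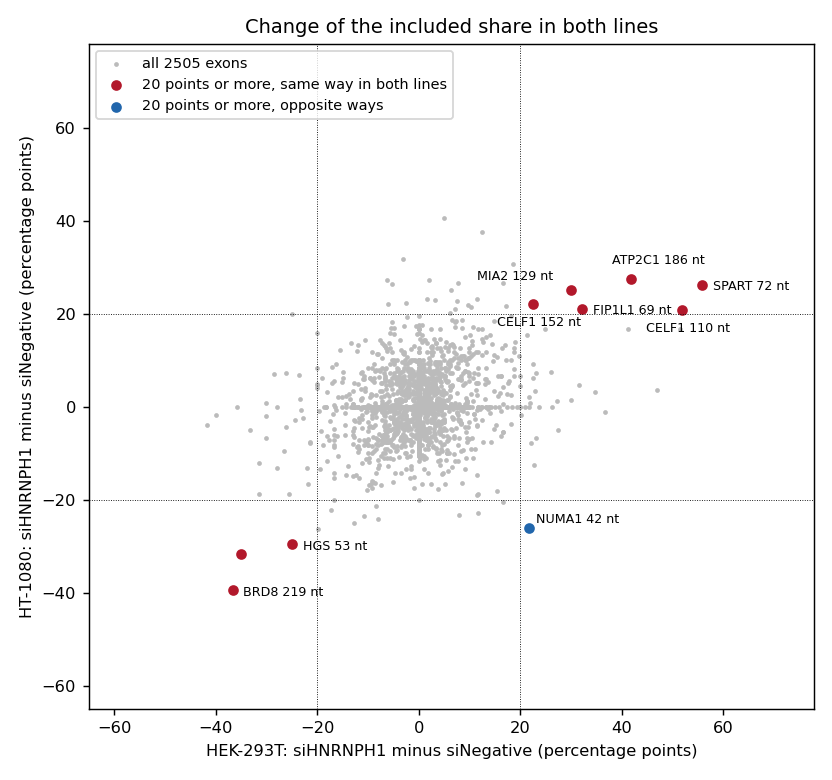
Difference in included share, siHNRNPH1 minus siNegative, in percentage points, for HEK-293T (horizontal axis) and HT-1080 (vertical axis), 1 point for each of the 2505 exons counted in all 4 pools; dotted lines mark 20 points. Red points are the 9 exons moved the same way in both lines, labelled where described, and the blue point is the NUMA1 exon, at 21.7 and -26.2 points.

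The 6 exons more included in both lines lay in 5 genes. The ATP2C1 exon was in 12 of 33 models (36.4%, interval 20.4 to 54.9) in HEK-293T siNegative and 25 of 32 (78.1%, 60.0 to 90.7) with siHNRNPH1. In HT-1080 it was in 24 of 50 (48.0%) and 37 of 49 (75.5%). Both treated pools lay above both siNegative pools, by 41.8 and 27.5 points within the lines. Most ATP2C1 models also contain the downstream 105 nt and 171 nt cassette exons: of the 25 HEK-293T siHNRNPH1 models with the 186 nt exon, 22 had the 105 nt exon and all 25 the 171 nt exon.

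SPART encodes spartin, a protein of endosomes and lipid droplets that is lost in a form of hereditary spastic paraplegia. Its 72 nt exon (chr13:36336287-36336358, minus strand) is, like that of ATP2C1, the second exon of its models. It was in 3 of 30 models (10.0%) in HEK-293T siNegative and 29 of 44 (65.9%) with siHNRNPH1, and in HT-1080 in 14 of 43 (32.6%) and 27 of 46 (58.7%). The difference of 55.9 points in HEK-293T was the largest of the 9 exons, and the siNegative pools already differed between the lines. The HT-1080 difference of 26.1 points was 19.2 when models with the same introns counted once, and 13.6 with only the most frequent pair of flanking splice sites, so it fell under the 20-point limit in both.

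In MIA2, whose product helps load large cargo at exit sites of the endoplasmic reticulum, a 129 nt exon (chr14:39320928-39321056, plus strand) went to full inclusion. It was in 7 of 10 and 20 of 20 models in HEK-293T, and in 9 of 12 and 17 of 17 in HT-1080. The skipped form, present in 3 models of each siNegative pool, was thus not seen in either treated pool. At these numbers, the siHNRNPH1 intervals reach down to 83.2% and 80.5%.

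CELF1, an RNA-binding protein that itself regulates splicing and mRNA decay, had 2 neighbouring cassette exons that were both higher. The 152 nt exon (chr11:47499453-47499604, minus strand) was in 15 of 31 models (48.4%) and 39 of 55 (70.9%) in HEK-293T, and in 10 of 23 (43.5%) and 19 of 29 (65.5%) in HT-1080. The 110 nt exon downstream of it (chr11:47495943-47496052) was in none of the 31 and 23 siNegative models, and in 27 of 52 (51.9%) and 6 of 29 (20.7%) siHNRNPH1 models. With 0 of 31 and 0 of 23, the siNegative intervals reach up to 11.2% and 14.8%. Read along single models, the 110 nt exon came mostly together with the 152 nt exon: in HEK-293T siHNRNPH1, 24 models had both, 3 only the 110 nt exon, 12 only the 152 nt exon and 13 neither. In HT-1080 siHNRNPH1 these numbers were 6, 0, 13 and 10. Neither length is a multiple of 3. For the 152 nt exon the HEK-293T difference turned to -6.35 points when only its most frequent pair of flanking splice sites was used, which leaves out the models that continue into the 110 nt exon.

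The last gene of this group, FIP1L1, encodes a subunit of the complex that cleaves and polyadenylates pre-mRNA. Its 69 nt exon (chr4:53391430-53391498, plus strand) was in 5 of 18 models (27.8%) and 24 of 40 (60%) in HEK-293T, and in 2 of 13 (15.4%) and 4 of 11 (36.4%) in HT-1080. A 108 nt cassette exon further downstream in FIP1L1 (chr4:53414615-53414722) was higher by 17.2 and 21.5 points, just short of the limit in HEK-293T. Both forms of each were found with both forms of the other: of the HEK-293T siHNRNPH1 models that span both, 12 had both, 12 only the first, 9 only the second and 7 neither.

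Inclusion was lower in both lines for exons of BRD8 and HGS. BRD8 is a bromodomain subunit of the NuA4/TIP60 histone acetyltransferase complex. Its 219 nt exon (chr5:138168470-138168688, minus strand) was in 23 of 30 models (76.7%) and 16 of 40 (40.0%) in HEK-293T, and in 14 of 17 (82.4%) and 6 of 14 (42.9%) in HT-1080. The differences of -36.7 and -39.5 points were closer to each other than those of HGS, and 219 is a multiple of 3. Among HEK-293T models that span both exons, 18 with siHNRNPH1 had a 69 nt cassette exon nearer the 3′ end of BRD8 but not the 219 nt exon, against 5 with siNegative, and 13 and 20 models had both.

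HGS, a subunit of the ESCRT-0 complex that sorts ubiquitinated receptors on endosomes, had a 53 nt exon (chr17:81690182-81690234, plus strand) in 8 of 10 (80.0%) and 11 of 20 (55.0%) models in HEK-293T, and in 26 of 27 (96.3%) and 12 of 18 (66.7%) in HT-1080.

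NUMA1, which encodes a protein of the spindle poles, held the 1 exon that moved in opposite directions. Its 42 nt exon (chr11:72012401-72012442, minus strand), the second exon of its models, was in 0 of 16 and 5 of 23 (21.7%) models in HEK-293T, and in 13 of 14 (92.9%) and 22 of 33 (66.7%) in HT-1080. The 2 lines therefore began from nearly opposite states without the knockdown, and both treated pools lay between the siNegative pools.

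Some exons stood out in a single line, with a difference under 10 points in the other. In HEK-293T these were, among exons higher, a 39 nt exon of SPAG9 (a scaffold of kinase signalling and vesicle transport), from 3 of 13 models to 21 of 30. The others were a 57 nt exon of ZNF195, from 2 of 15 to 14 of 28, and a 154 nt exon of MTRR (methionine synthase reductase), from 3 of 10 to 11 of 17. In HT-1080 their shares went from 36.4% to 40.0%, from 20.0% to 18.8% and from 73.3% to 76.5%. Exons lower in HEK-293T were a 141 nt exon of ZNF410 (a zinc finger activator of CHD4), from 9 of 12 to 8 of 24, a 78 nt exon of RCC2 (a mitotic regulator), from 10 of 10 to 12 of 20, and a 149 nt exon of GCN1, the activator of the stress kinase GCN2, from 22 of 22 to 9 of 14. GCN1 stayed at 25 of 25 and 22 of 22 in HT-1080. Whether any of these effects differs between the lines was not tested, since a pool has no replicate. In HEK-293T short reads, RCC2 transcript ENST00000375436.9 held 99.95% of its gene with siNegative and 99.94% with siHNRNPH1 (means, n = 3). GCN1 transcript ENST00000300648.7 held 98.8% and 97.8%. These annotated transcripts were not matched to the exons, and the falls in RCC2 and GCN1 are falls in the share of models.

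Among exons higher in HT-1080 alone were a 312 nt exon of KIF23 and a 128 nt exon of RIOK3, an atypical protein kinase. KIF23 encodes the motor subunit of centralspindlin, and this exon is known to separate its 2 main protein forms. It was in 6 of 26 models (23.1%) and 7 of 11 (63.6%) in HT-1080, and in 18 of 39 (46.2%) and 21 of 41 (51.2%) in HEK-293T. Total KIF23 RNA in HT-1080 stood at 115 ± 4.64 CPM with siNegative and 37.0 ± 1.25 CPM with siHNRNPH1 (n = 3). For KIF23 transcript usage, limma diffSplice gave an adjusted p of 0.2075 in HT-1080 and 0.00492 in HEK-293T. RIOK3 went from 6 of 10 to 11 of 12. Lower in HT-1080 were a 169 nt exon of ATXN2 (an RNA-binding protein of stress granules), from 16 of 18 to 11 of 17, a 93 nt exon of the exocyst gene EXOC7, from 5 of 11 to 4 of 18, and a 314 nt exon of PTK2 (focal adhesion kinase), from 5 of 19 to 1 of 20. For EXOC7 the difference of -23.2 points became -12.5 with only the most frequent pair of flanking splice sites.

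The 2 genes in the study's title held cassette exons that shifted less. EIF4G1 encodes the scaffold of the cap-binding translation initiation complex, and its cassette exons cluster at the 5′ end. In order along the gene (chr3, plus strand), the 57 nt exon at 184315489-184315545 was in 68.6% of 35 models and 59.7% of 67 in HEK-293T, and in 77.1% of 35 and 67.6% of 37 in HT-1080. The 87 nt exon at 184316132-184316218 went from 69.0% to 56.8% and from 66.7% to 58.1%, and the 177 nt exon at 184317321-184317497 from 85.7% to 75.4% and from 90.7% to 79.5%. A 113 nt exon at 184319689-184319801 went from 97.7% to 85.9% and from 94.2% to 91.8%. These 4 exons were lower in both lines, with differences of -12.2 to -2.39 points, and none reached 20. The 94 nt exon at 184315763-184315856 was 5.00 points higher in HEK-293T and 3.33 points lower in HT-1080. A 147 nt exon at 184316072-184316218, which shares its end with the 87 nt exon, was in 6 of 12 and 5 of 11 HT-1080 models and had too few in HEK-293T siNegative, 7, to be counted there. Exons of 159, 237 and 173 nt nearer the 3′ end were in at least 97.8% of models in every pool.

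**Figure D4:**
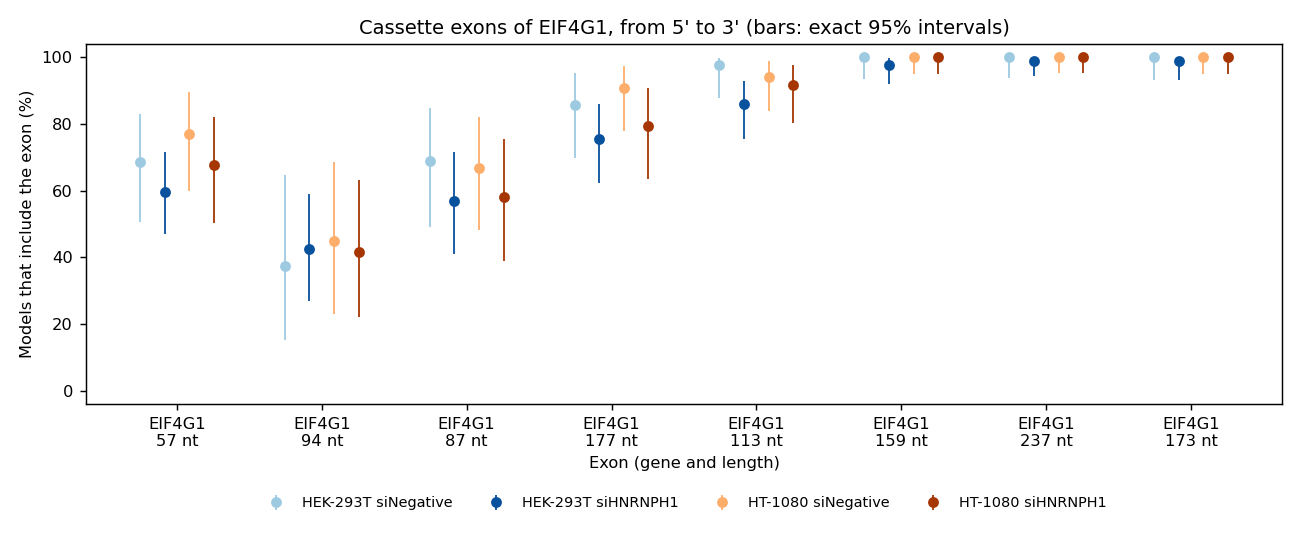
Share of models that include each of 8 EIF4G1 cassette exons counted in all 4 pools (vertical axis, percent), ordered from 5′ to 3′ (horizontal axis, exon length); points are pools and bars exact 95% intervals. The 57, 87, 177 and 113 nt exons are lower with siHNRNPH1 in both lines (differences of -12.2 to -2.39 points) with overlapping bars, and the last 3 exons are at 97.8% or more.

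AURKA encodes Aurora kinase A, which drives centrosome maturation and spindle assembly. Of its cassette exons, 2 near the 5′ end could be counted in both lines. The 98 nt exon (chr20:56388687-56388784, minus strand) was in 7 of 14 and 6 of 16 models in HEK-293T, and in 6 of 19 and 4 of 14 in HT-1080. The 110 nt exon (chr20:56390556-56390665) was in 7 of 14 and 8 of 16, and in 12 of 21 and 9 of 14. The differences were -12.5 and -3.01 points for the first and 0 and 7.14 points for the second, all within intervals that spanned more than 40 points. Total AURKA RNA was lower in every treated library, at 112 ± 2.02 and 94.3 ± 4.66 CPM (n = 3) in HEK-293T and 138 ± 4.45 and 50.4 ± 1.54 CPM in HT-1080.

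HNRNPH1's own exons could be followed in HEK-293T only, since the HT-1080 siHNRNPH1 pool held 2 models with either form of each. A 139 nt exon (chr5:179619269-179619407, minus strand) was in 13 of 17 models (76.5%) and 10 of 10 in HEK-293T, and in 11 of 14 and 2 of 2 in HT-1080. The other HNRNPH1 exons counted in HEK-293T did not move: a 50 nt exon was in 20 of 31 and 9 of 14 models, and a 134 nt exon in 0 of 32 and 1 of 12. HNRNPH3, the family member with a shorter protein, has a cassette exon of the same length, 139 nt (chr10:68337858-68337996, plus strand). It was in 9 of 13 (69.2%) and 29 of 33 (87.9%) models in HEK-293T, and in 11 of 17 (64.7%) and 21 of 22 (95.5%) in HT-1080. Skipping of either 139 nt exon shifts the reading frame if the exon is coding. Both exons were thus more included in the treated pools, while total HNRNPH3 RNA stood at 310 ± 6.70 and 683 ± 128 CPM (n = 3) in HEK-293T and 207 ± 2.77 and 403 ± 4.69 CPM in HT-1080.

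Among 51 splicing regulators, many of which carry cassette exons that control their own level, 44 had cassette exons, 178 in all. In HEK-293T 86 could be counted, of which 2 were higher and 3 lower (5.81% moved, against 3.75% of all exons counted there), and in HT-1080 76, of which 2 were higher and 1 lower (3.95% against 2.65%). Median absolute differences of 3.66 and 3.51 points were close to those of all exons (4.76 and 3.70). Those higher in HEK-293T were the 139 nt exon of HNRNPH1 and a 156 nt exon of HNRNPA1 (15.4% and 45.5%, beside 23.5% and 25% in HT-1080). Those lower there were a 78 nt exon of PTBP1, a repressor of neuronal exons (66.7% and 40.6%, beside 56.7% and 52.4%), and exons of SRSF4 (175 nt, 4 of 11 and 1 of 16 models) and of the kinase gene CLK1 (167 nt, 10 of 11 and 12 of 17). In HT-1080, HNRNPH3 and RBM39 (73 nt, 21.3 points) were higher and HNRNPM (54 nt, -20.6 points) was lower, with RBM39 and HNRNPM at 10.3 and 16.7 points in HEK-293T. The RBM39 difference was 15.9 with only the most frequent pair of flanking sites.

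A list of genes with exons described as HNRNPH or HNRNPF targets held 32 symbols, of which RON and MST1R name the same gene. Of these, 20 had 94 cassette exons. In HEK-293T 0 of 31 counted were higher and 1 lower (3.23% moved, against 3.75% of all), the 248 nt exon of MCL1, whose skipping is known to give a short pro-apoptotic protein. It was in 9 of 10 and 10 of 15 models, and in HT-1080 in 13 of 15 and 15 of 17. In HT-1080, of 52 counted, 2 were higher (MADD, 60 nt, and KLHL5, 477 nt) and 1 lower (MADD, 70 nt), or 5.77% against 2.65% of all, none of them countable in HEK-293T. SRSF4, CLK1, MADD, KLHL5 and ENAH are named because so few exons moved, after their values were seen. Of 40 genes of cytoskeleton, adhesion and traffic with well-studied cassette exons, 29 had 133 such exons, of which 53 in HEK-293T and 78 in HT-1080 could be counted. Of these, 4 (7.55%) and 2 (2.56%) moved, against 3.75% and 2.65% of all exons. With so few moved exons per list, no list is called different from the rest. In HEK-293T 2 were higher, in MACF1 (111 nt, 0 of 19 to 4 of 20) and SPTAN1 (60 nt, 3 of 14 to 5 of 12), both cytoskeletal linkers. A 96 nt exon of ADD3 (adducin 3) was lower, in 8 of 14 and 6 of 25 models, and stood at 30% and 25% in HT-1080. A 111 nt exon of ENAH, an actin regulator, was also lower in HEK-293T, from 10 of 11 to 13 of 19. The HT-1080 exons of this list that moved were those of KIF23 and EXOC7 given above.

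The absence of counts limits what the models can show for abundant genes with few models. MYL6, the gene of a myosin light chain, has a 45 nt cassette exon (chr12:56160626-56160670, plus strand) in 1 of 1, 3 of 6 and 3 of 5 models of the HEK-293T siHNRNPH1, HT-1080 siNegative and HT-1080 siHNRNPH1 pools, too few to count, and with neither form in HEK-293T siNegative. In short reads, transcript ENST00000547649.5 held 67.4% ± 0.546 (n = 3) of MYL6 in HEK-293T siNegative and 19.1% ± 1.04 with siHNRNPH1, and 54.7% ± 1.08 and 15.1% ± 1.08 in HT-1080. MYL6 was looked up after its values were seen.

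The short-read libraries are replicated and took no part in finding the exons, so the host genes could be tested for transcript usage, the division of a gene's expression among its annotated transcripts (limma diffSplice, Simes p per gene, Benjamini-Hochberg adjusted over all genes tested, threshold 0.05). In HEK-293T, usage changed in 888 of 10593 genes tested (8.38%) and in 120 of 1193 host genes of counted exons (10.1%). Host genes of moved exons were called in 38 of 169 cases (22.5%) and other hosts in 82 of 1024 (8.01%). Without siHNRNPH1 replicate 1, 4782 of 10825 genes were called (44.2%), with 131 of 167 hosts of moved exons (78.4%) and 642 of 1017 other hosts (63.1%). In HT-1080, usage changed in 2109 of 8895 genes (23.7%) and 340 of 905 hosts (37.6%), with 33 of 81 hosts of moved exons (40.7%) and 307 of 824 others (37.3%). The HT-1080 gap between hosts of moved and of other exons was larger with all transcripts past filterByExpr (50.0% against 36.4%) and without siHNRNPH1 replicate 2 (34.6% against 26.4%). It was smaller without siNegative replicate 1 (35.8% against 33.9%) or siNegative replicate 3 (33.3% against 30.5%). Neither line's gap was tested. Since the labels do not say which replicates entered a pool, the pools and these libraries may hold the same RNA and need not be independent.

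For the 7 genes described above whose exons moved the same way in both lines, usage changed in 2 in HEK-293T (BRD8 and HGS) and in 5 in HT-1080 (ATP2C1, CELF1, FIP1L1, HGS and SPART), by limma diffSplice. Without HEK-293T siHNRNPH1 replicate 1, 6 of the 7 were called in HEK-293T, all but SPART. A usage call does not say that the exon itself was involved, because the annotated transcripts were not matched to exons here. In HT-1080, FIP1L1 (adjusted p = 0.0212) was lost without siNegative replicate 1 (0.0756) or 3 (0.114) and without siHNRNPH1 replicate 1 (0.0715) or 2 (0.0772). CELF1 (adjusted p = 0.00682) was lost without siHNRNPH1 replicate 3 (0.0555) and HGS (adjusted p = 1.84e-05) without siHNRNPH1 replicate 2 (0.173). With edgeR's diffSpliceDGE in place of limma, the calls of HGS in HEK-293T (adjusted p = 0.774) and of SPART (0.880) and FIP1L1 (1) in HT-1080 were lost, while BRD8 in HEK-293T and ATP2C1, CELF1 and HGS in HT-1080 were called.

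Shares of single transcripts are given library by library, each gene represented by the transcript whose share moved most. Since the transcripts were chosen for that difference, their shares are a description and carry no test of their own. In BRD8, ENST00000230901.9 held 42.5%, 45.2% and 42.6% of the gene in the HEK-293T siNegative libraries and 3.68%, 9.03% and 9.34% with siHNRNPH1. In HT-1080 it held 34.4%, 39.8% and 33.2%, and 9.87%, 10.7% and 15.2%. The groups were far apart in both lines, and limma diffSplice gave the usage of the gene in HEK-293T an adjusted p of 0.000207, and in HT-1080 one of 0.174. Total BRD8 RNA was also lower in every treated library, at 129 ± 1.73 and 68.4 ± 4.97 CPM (n = 3) in HEK-293T and 69.2 ± 0.749 and 52.4 ± 0.823 CPM in HT-1080.

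ATP2C1's ENST00000504948.5 held 25.0%, 25.0% and 25.8% with siNegative in HEK-293T, and 15.1%, 0.0965% and 0% with siHNRNPH1. In HT-1080 it held 21.1%, 21.3% and 19.1%, and 2.97% in replicate 1 with the other libraries near 0. Replicate 1 was thus the highest of the treated libraries in both lines, and the adjusted p was 0.329 in HEK-293T (0.000226 without replicate 1) and 0.000906 in HT-1080. In HGS, ENST00000329138.9 went from 11.7% ± 1.27 to 1.20% ± 2.08 (n = 3) and from 35.6% ± 4.04 to 24.3% ± 2.21.

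MIA2's ENST00000348007.7 held 34.6% ± 4.22 and 10.8% ± 4.98 (n = 3) in HEK-293T, and 38.1% ± 12.6 and 20.8% ± 7.34 in HT-1080, where the adjusted p was 0.0552. FIP1L1's ENST00000306932.10 went from 32.6% ± 1.57 to 19.7% ± 0.495 and from 36.4% ± 3.03 to 28.0% ± 0.528. The spread of the treated FIP1L1 libraries was under 1 point in both lines, replicate 1 of HEK-293T included. In SPART, ENST00000494062.2 stood at 74.5% ± 1.46 and 78.7% ± 1.27 in HEK-293T and 60.7% ± 1.15 and 68.2% ± 1.18 in HT-1080. In CELF1, ENST00000310513.10 held 37.0%, 37.0% and 36.3% with siNegative in HEK-293T and 81.1%, 34.9% and 35.2% with siHNRNPH1, so the groups overlapped and the mean rested on replicate 1. In HT-1080 it held 41.5% ± 2.55 and 36.2% ± 1.52.

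**Figure D5:**
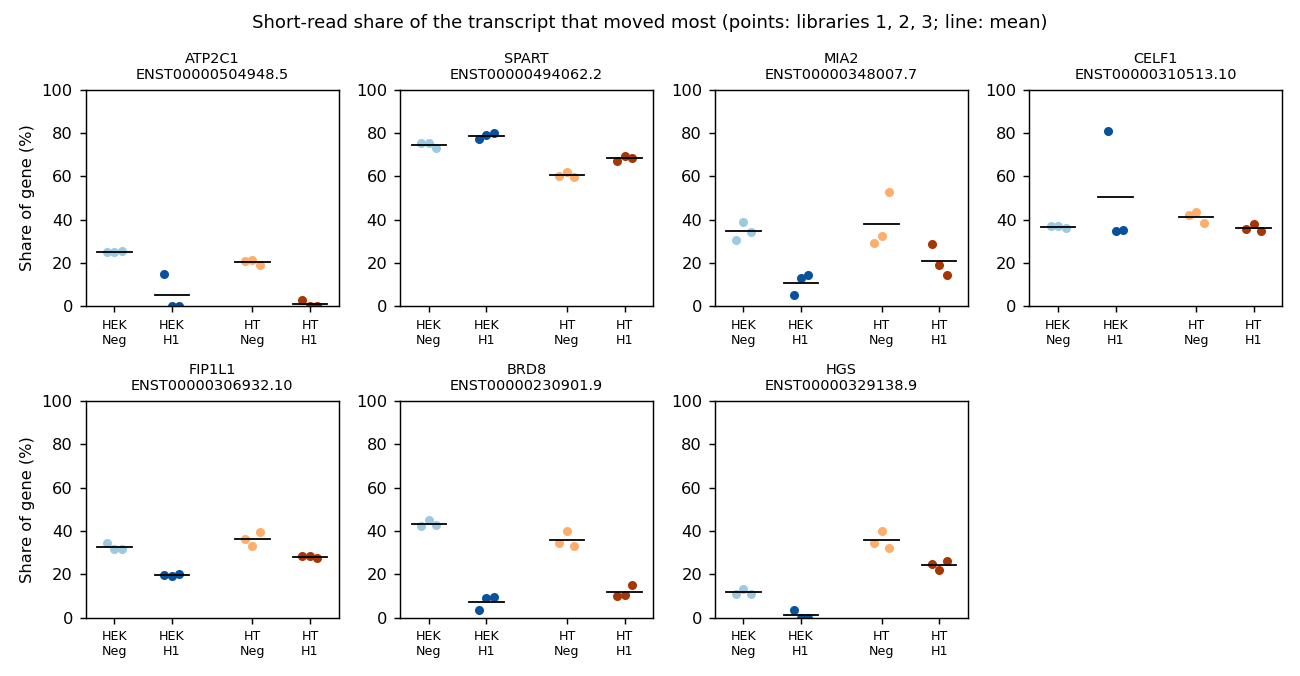
Short-read share of its gene (vertical axis, percent) held by 1 transcript of each of 7 genes whose cassette exons moved the same way in both lines; columns are HEK-293T and HT-1080 (HT) with siNegative (Neg) or siHNRNPH1 (H1), points are the 3 libraries and lines their means. In BRD8 the share is 33.2 to 45.2% with siNegative and 3.68 to 15.2% with siHNRNPH1, and in CELF1 and ATP2C1 the HEK-293T siHNRNPH1 library that stands apart is replicate 1.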

How the data were processed

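The members and gene lists were chosen with earlier results of these data known. The authors estimated expected counts per transcript from the short reads with RSEM and deposited them unscaled, per the labels; its version, the aligner, annotation release and strandedness are not given in the sources used here. The submitters' processing notes name GRCh38.p13. The IsoSeq files list collapsed models with exon positions and no counts; 0 columns were left unmatched.

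Exons were matched by exact position, and all qualifying pairs of flanking splice sites of an exon were counted together. Genes were named by RefSeq spans (GRCh38.p14), which served for names; of 1973 host genes, 1958 matched the short-read tables by symbol. Expected counts were rounded; transcripts past edgeR's filterByExpr (4.0.16) with at least 5% of their gene were scaled by TMM and tested with limma 3.58.1 voom and diffSplice (robust, two-sided), per line, on 6 libraries. Labels do not say that replicates were separate cultures, so p-values measure the spread between these libraries. Same-numbered libraries correlated by 0.0320 to 0.259 in their deviations from group means, not above 0.1 in every pair, so no pairing was used. CPM is the count over the library total. Both steps were tested on simulated data.

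Named exons have at least 10 models in all pools: those moved the same way in both lines; per line and direction the 3 with the largest difference and under 10 points in the other line; those moved in opposite directions; the counted exons of HNRNPH1, EIF4G1 and AURKA; and moved exons of the lists. The exons of HNRNPH1, AP3M2, SCML2, CDK16, MPRIP, MYL6, SRSF4, CLK1, MADD, KLHL5 and ENAH, the 110 nt CELF1, 147 nt EIF4G1, 108 nt FIP1L1 and 69 nt BRD8 exons go beyond that rule. Exons of 1 gene that met the rule are not reported here. Alternatives tried were other model counts, minimums, sizes, filters, scaling, a replicate block, diffSpliceDGE and leaving out each library.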

Additional observations from a re-analysis of the deposited data

Results flagged for a closer look

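The 42 nt exon of NUMA1 was 21.7 points higher with siHNRNPH1 in HEK-293T (0 of 16 models against 5 of 23) and lower in HT-1080, by -26.2 points (13 of 14 against 22 of 33). It drew attention because the single pools of the lines moved in opposite directions. Whether the lines differ here was not tested.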

How the results depend on the processing

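Counts of moved exons followed the limits set. For HEK-293T, for HT-1080 and for both lines the same way, they were 204, 101 and 9, and became 866, 749 and 61 with at least 5 models per pool, 27, 12 and 4 with at least 20 models, 907, 555 and 76 at 10 points, and 60, 18 and 2 at 30 points. Counting each chain of introns once gave 132 and 54 in the lines, and asking for intervals that do not overlap gave 7, 1 and 0. The 4 exons left with at least 20 models were all higher and the 2 left at 30 points both lower. Of the differences of at least 20 points given for named exons, 1 changed sign, that of the 152 nt CELF1 exon in HEK-293T (-6.35 points with only the most frequent pair of flanking sites). Sign changes of smaller differences were not counted. Counting each chain of introns once put 3 differences on the other side of the 20-point limit, and using only that most frequent pair put 4 there. The rest stayed on the same side of it.

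Calls of transcript usage among host genes depended on the test and on single libraries. Against 120 for HEK-293T and 340 for HT-1080, diffSpliceDGE gave 30 and 123. Leaving out each library in turn gave 37 to 773 in HEK-293T, the highest without siHNRNPH1 replicate 1, and 247 to 353 in HT-1080. With the replicate block the counts were 68 and 315 in the same order; the libraries share only a number. Of the genes whose exons moved in both lines and are described, the block ended the calls of HGS in HEK-293T (adjusted p = 0.0899, limma diffSplice) and FIP1L1 in HT-1080 (0.105) and added MIA2 in HEK-293T (0.0452). In HEK-293T all 3 numbers, and in HT-1080 2 of 3, correlated best with their own. The planned test of exon inclusion in short reads was not run, since no transcript structures with the identifiers of the tables were at hand. Depth limits single exons: 7 of 11 models, as for KIF23, has an exact interval of 30.8 to 89.1%.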
